A study of Arabidopsis thaliana with 2 samples.

Results

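The genes of the 2 organelle genomes of Arabidopsis thaliana were followed in RNA of pollen tubes, taken as every row of the deposited expression table whose identifier starts with ATMG, the mitochondrial genome, or with ATCG, the chloroplast genome. There were 279 such rows of 33557 in all, 146 mitochondrial and 133 chloroplast. The series sets the double mutant, with the genotype label drop1- drop2- (drop), against wild type (WT), and its title is about sperm cells carried by the tube. Tubes of both genotypes were grown semi-in-vivo, which means that pollen germinated on a cut pistil and the tubes emerged from the style onto solid medium. They were cut when 300 to 400 µm had emerged, from stigmas pollinated with 500 to 600 grains, and tubes from 2 stigmas were pooled into each Smart-seq2 library. The time after emasculation, the removal of the anthers, was 36 hours for both libraries. Which library is mutant rests on the genotype labels, since the shared treatment description names mutant grains throughout. The labels give no age of the plants and do not name the alleles further.

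With 1 library of each genotype, replicate error is unknown and no test was possible. Expression was deposited in FPKM, which counts fragments relative to transcript length and library depth, and the number of fragments is not given. The column sums were 3668030 FPKM in drop and 1299600 FPKM in WT, a ratio of 2.82, so a level in drop and the same level in WT are different shares of their libraries. For this reason shares of the library sum and rescaled values are given beside deposited FPKM.

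Plant mitochondria carry a small genome that encodes ribosomal and transfer RNAs, some ribosomal proteins and core subunits of the respiratory complexes and the ATP synthase. The chloroplast genome encodes a further set of ribosomal RNAs, core subunits of the photosystems, the large subunit of Rubisco and a plastid RNA polymerase. Most other proteins of both organelles come from nuclear genes. Organelle transcripts do not carry the long, stabilising poly(A) tails of nuclear mRNA, and a tail there marks RNA for decay, while the libraries were primed with oligo(dT). Pollen tubes hold many mitochondria and non-green plastids.

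The deposited table gives identifiers without names. Notes in the RefSeq annotation of TAIR10.1 describe 51 of the 279 rows, 45 mitochondrial and 6 chloroplast, each as the closest protein match of a nuclear gene, and 30 of these descriptions say more than "unknown protein". The other 228 rows are given by number, with at most 2 identifiers in each direction for each genome.

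The summed FPKM of the mitochondrial genome was lower in drop and came almost entirely from 3 rows. The 146 rows summed to 168.9 FPKM in drop and 512 FPKM in WT. This was 0.00460% of all FPKM in drop and 0.0394% in WT, a share 8.56 times larger in WT. In drop 8 mitochondrial rows were above 0, or 5.48% of them, and in WT 14 rows, or 9.59%. Among nuclear rows 38.8% were above 0 in drop and 45.4% in WT. Of the mitochondrial rows 129 were listed at 0 in both libraries, 5 were above 0 in both, 3 in drop alone and 9 in WT alone.

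ATMG00030 was the highest mitochondrial row, at 64.1 FPKM in drop and 195 FPKM in WT. ATMG00020 came next, at 59.2 FPKM in drop and 180 FPKM in WT. The third row stood at 37.1 FPKM in drop and 127 FPKM in WT. All 3 were lower in drop, by 3.05-fold, 3.03-fold and 3.41-fold in deposited FPKM, and their order was the same in both libraries. As shares of the library the difference was 8.60-fold, 8.56-fold and 9.64-fold, larger by construction because the column sums differ. These rows ranked 1065th, 1099th and 1400th of all rows in drop and 396th, 421st and 536th in WT. The notes hold no description of these 3 rows, so what they encode is not stated here.

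Together the 3 rows held 95.0% of the mitochondrial sum in drop and 97.99% in WT. The other mitochondrial rows together came to 8.47 FPKM in drop and 10.3 FPKM in WT. Of the 5 rows above 0 in both libraries, 1 had the larger value in drop as deposited and 0 at equal sums. The next highest value was 3.99 FPKM in drop and 3.87 FPKM in WT, so no mitochondrial row lay between 4 FPKM and the values of the 3 highest.

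**Figure D1:**
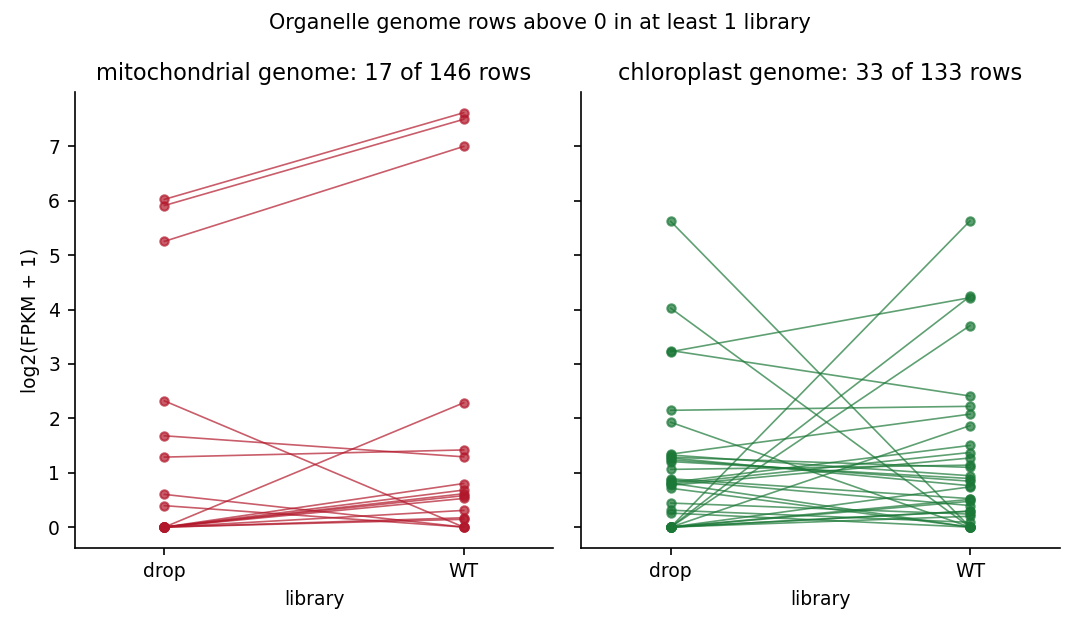
Each point is a row of the mitochondrial (left) or chloroplast (right) genome in drop or WT, on a log2(FPKM + 1) axis, and a line joins the 2 values of a row; rows at 0 in both libraries are left out. The 3 highest mitochondrial rows run parallel and stand at 37.1 to 64.1 FPKM in drop and 127 to 195 FPKM in WT, while the lines of the chloroplast rows, drawn at deposited values, cross.

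The described mitochondrial rows included parts of the respiratory chain and ATP synthase, and most were listed at 0. The row of ATP synthase subunit 9 (ATMG01080), part of the proton-driven rotor in the membrane, was listed at 0 in drop and stood at 3.87 FPKM in WT. ATP synthase subunit 1 (ATMG01190), which belongs to the catalytic head, was listed at 0 in drop and at 0.104 FPKM in WT. NADH dehydrogenase 2B (ATMG01320), part of a complex I subunit, was listed at 0 in drop and at 0.440 FPKM in WT. ATMG00560, described as a nucleic acid-binding protein with an OB-fold, had 0.314 FPKM in drop but was listed at 0 in WT. These 4 rows were each above 0 in a single library, and 3 of the 4 stayed below 1 FPKM.

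The other 20 of the 24 mitochondrial rows with such a description were listed at 0 in both libraries. They included apocytochrome b (ATMG00220), the cytochrome subunit of complex III, and cytochrome c oxidase subunit 3 (ATMG00730), a core subunit of complex IV. ATPase subunit 6-1 (ATMG00410), which forms part of the proton path of the ATP synthase, and NADH dehydrogenase 3 (ATMG00990) of complex I were also at 0. Among the ribosomal proteins, L5 (ATMG00210), S4 (ATMG00290) and S7 (ATMG01270) were at 0, as was the cytochrome c biogenesis row ATMG00900.

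A value near 0 for these rows has a limit that does not touch all mitochondrial rows alike. The nuclear genome of this species holds a large insert of mitochondrial DNA on chromosome 2, and fragments that match both places cannot be assigned from sequence alone. In TAIR10.1, 22 of 33 mitochondrial protein-coding genes, or 66.7%, had nuclear matches of at least 98% identity over at least 90% of their length, while 0 of 85 chloroplast protein-coding genes did. The mitochondrial gene for ATP synthase subunit 9 (atp9) matched over its full 225 bases at 100% identity. By contrast, the genes of the large and small mitochondrial ribosomal RNAs had 1.55% and 0% of their length in such matches. Of the 53 mitochondrial rows that a note ties to a nuclear gene, 4 were above 0 in either library, with a highest value of 0.314 FPKM in drop and 3.87 FPKM in WT. Of the 93 others 13 were above 0, and these include the 3 highest. Chloroplast rows split in the same direction, with 1 of 7 tied rows and 32 of 126 others above 0 in either library. The notes do not measure shared bases, so this split does not sort rows by shared fragments. The sources used here do not say how fragments with several matches were counted.

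Nuclear rows of this region were low. Among 147 nuclear rows from AT2G07640 to AT2G07840, in or next to the insert, 9 were above 0 in drop and 15 in WT, with sums of 2.06 FPKM in drop and 18.7 FPKM in WT. These sums are not those of copies alone. AT2G07690, which no note ties to an organelle row, was at 0.0958 FPKM in drop and 3.56 FPKM in WT, the second highest of them in WT. AT2G07671, the nuclear relative of the subunit 9 row, was listed at 0 in drop and was at 9.34 FPKM in WT. The subunit 9 row and its relative were thus both above 0 in WT and both listed at 0 in drop. AT2G07727, the relative of apocytochrome b, was at 0.212 FPKM in drop and 0.753 FPKM in WT. AT2G07698, the relative of ATP synthase subunit 1, was listed at 0 in drop and was at 0.176 FPKM in WT.

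A gene was called higher or lower in drop when log2((drop FPKM + 1)/(WT FPKM + 1)) passed 2-fold and either library reached 1 FPKM. This scale understates the ratio of rows with low values. Over all 9880 genes past that filter, 26.4% were called higher and 30.4% lower. Of the 146 mitochondrial rows 7 passed the filter, and of these 1 was higher, 4 were lower and 2 were neither. The 4 lower rows were the 3 highest rows, with log2 ratios of -1.59, -1.58 and -1.74, and that of ATP synthase subunit 9, which was listed at 0 in drop. The higher one was ATMG01000, which had 3.99 FPKM in drop and was listed at 0 in WT. The other 2 rows were between 1.44 and 2.201 FPKM in drop and between 1.45 and 1.67 FPKM in WT. The median log2 ratio was 0 over all 146 rows, most of which are at 0 in both libraries, as it was over all genes.

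Each scaling tried multiplied the drop values by a factor below 1, between 0.354 and 0.465. The 3 highest rows, lower as deposited, therefore became lower still by construction. At equal library sums their log2 ratios were -3.05, -3.04 and -3.17, and with a median ratio of 1 over the 1935 genes of at least 10 FPKM in both they were -2.67, -2.66 and -2.81. The mitochondrial sum was 3.03-fold lower in drop as deposited, 8.56-fold lower at equal sums and 6.52-fold lower under the median-ratio scaling. Over all genes past the filter, 48.6% were called lower at equal sums and 43.4% under the median-ratio scaling.

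**Figure D2:**
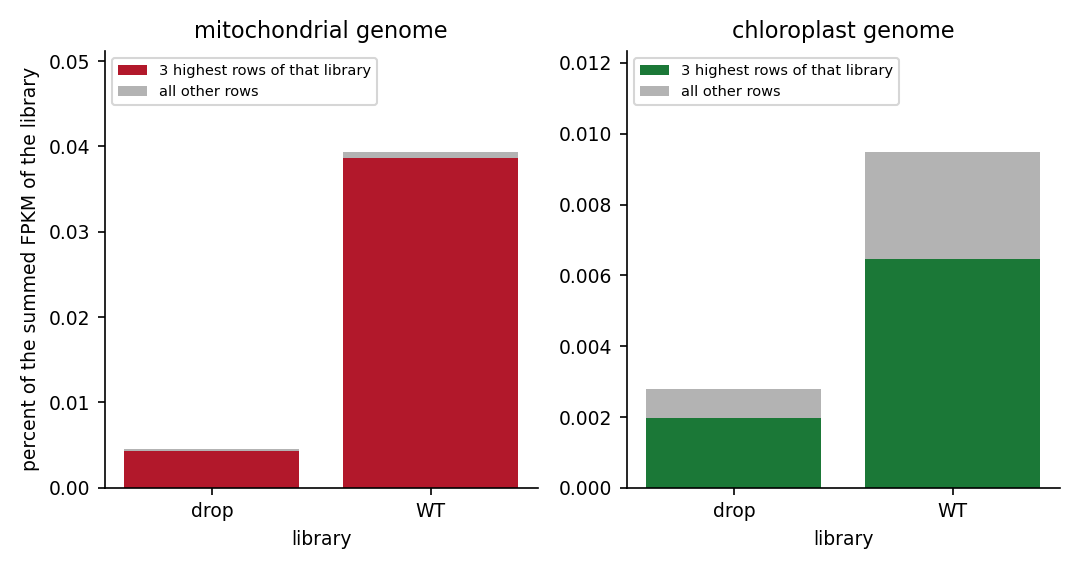
Bars give the percent of each library's summed FPKM held by rows of the mitochondrial (left) and chloroplast (right) genome in drop and WT, with the 3 highest rows of that library in colour and all other rows in grey; the panels have different scales. The mitochondrial share was 0.00460% in drop and 0.0394% in WT, and the chloroplast share 0.00279% in drop and 0.00950% in WT.

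Transcripts of the chloroplast genome were spread over more rows, at low levels, with differences in both directions as deposited. The 133 rows summed to 102.2 FPKM in drop and 123 FPKM in WT, which was 0.00279% of all FPKM in drop and 0.00950% in WT. The share was 3.41 times larger in WT, while the sum in FPKM was only 1.21-fold lower in drop. Over all genes above 0 in both libraries the median drop-to-WT ratio in FPKM was 1.04. A typical gene thus also held a larger share in WT, since the column sums differ. In drop 23 chloroplast rows were above 0, or 17.3%, and in WT 27 rows, or 20.3%. Of all chloroplast rows 17 were above 0 in both libraries, 6 in drop alone, 10 in WT alone and 100 in neither. The 3 highest rows of each library held 70.4% of the chloroplast sum in drop and 68.1% in WT.

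The highest chloroplast rows differed between the libraries. ATCG01120 was the highest in drop, at 48.2 FPKM, and was listed at 0 in WT. ATCG00820 followed, at 15.3 FPKM in drop, and was likewise listed at 0 in WT. The highest row in WT was ATCG00580, listed at 0 in drop and at 48.5 FPKM in WT. ATCG00710 was listed at 0 in drop and stood at 17.9 FPKM in WT. None of these 4 rows was above 0 in both libraries.

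Of the 133 chloroplast rows 20 passed the filter of 1 FPKM. By the same rule 3 were higher in drop, 4 were lower and 13 were neither, against 26.4% and 30.4% of all genes. Each of the 7 rows past 2-fold was listed at 0 in 1 of the libraries, so no fold is given for them. The remaining row called higher was at 2.80 FPKM in drop, and the remaining rows called lower were at 2.64 and 12.0 FPKM in WT. With a filter of 10 FPKM, where 45.4% of 3633 genes were called higher and 27.9% lower, 2 chloroplast rows were higher and 3 lower, and 0 mitochondrial rows were higher and 3 lower. Over all 133 chloroplast rows the median log2 ratio was 0. Over the 20 that passed 1 FPKM it was -0.076, against -0.075 over all genes past that filter.

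For the chloroplast rows above 0 in both libraries the direction depended on the scale. Among these 17 rows 10 had the larger value in drop and 7 in WT as deposited, while at equal sums 1 was larger in drop and 16 in WT, and under the median-ratio scaling 2 were larger in drop and 15 in WT. Their deposited values were between 0.240 and 8.49 FPKM in drop, with a median of 1.31, and between 0.0632 and 17.6 FPKM in WT, with a median of 1.14. The row at 17.6 FPKM in WT was at 8.35 FPKM in drop, a log2 ratio of -0.99 that falls just short of 2-fold. The row at 8.49 FPKM in drop was at 4.31 FPKM in WT, a log2 ratio of 0.84. Of the chloroplast rows with a description, that of the CemA-like proton extrusion protein (ATCG00530), an envelope membrane protein, was listed at 0 in drop and at 0.424 FPKM in WT. The 5 others were at 0 in both libraries, among them the ClpP protease subunit (ATCG00670) and the ribosomal proteins L20 (ATCG00660), S11 (ATCG00750) and L2 (ATCG01310).

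Values of this size lie where FPKM moves in coarse steps. For 2786 nuclear rows above 0 but under 1 FPKM in each library, drop-to-WT ratios piled up at 1.80, where 1 bin of 0.1 log2 units held 292 rows and the 20 neighbouring bins a median of 43.5. Of the 17 chloroplast rows above 0 in both libraries 6 lay within 0.2 log2 units of that ratio, 2 lay above and 9 below. Of the 5 mitochondrial rows 0 lay within it and 5 below. However, 13 of these chloroplast rows and all 5 mitochondrial rows reached 1 FPKM, outside the range that gave the ratio. The share of nuclear rows within 0.2 log2 units was not computed, so the counts have no background to be read against. Short transcripts have larger steps. Among nuclear genes with a single transcript below 300 bases, the 5th percentile of the values above 0 was 6.07 FPKM in drop, over 36 genes, and 5.53 FPKM in WT, over 44 genes. For transcripts of 1000 to 2000 bases it was 0.176 FPKM in drop and 0.133 FPKM in WT. RefSeq annotates 26 of 85 chloroplast coding sequences below 300 bases and 1 of 33 mitochondrial ones. Lengths could not be tied to the identifiers, so fragments per row were not estimated.

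**Figure D3:**
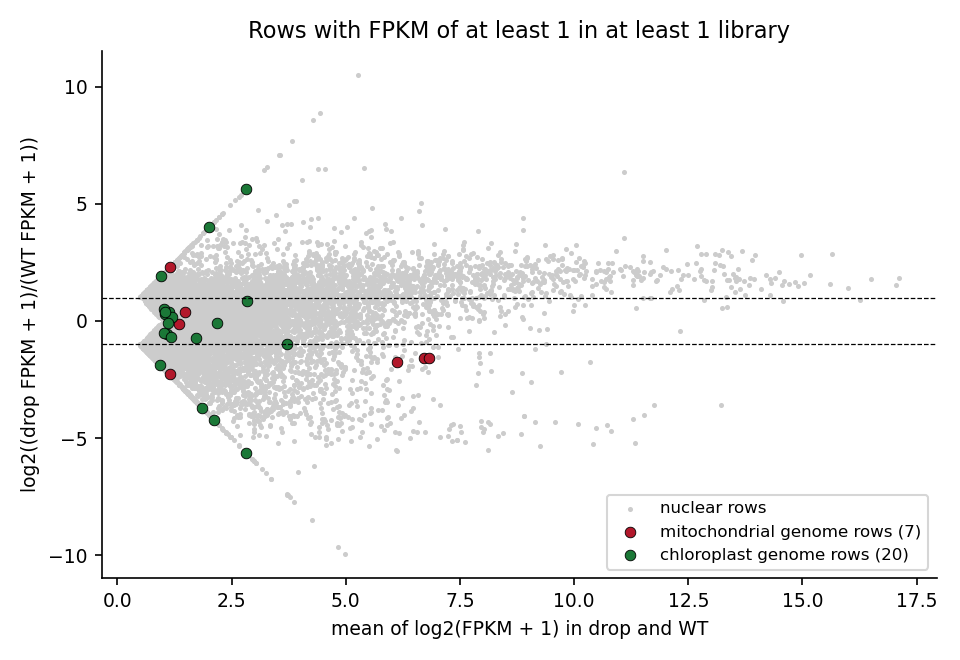
Each point is a row that reached 1 FPKM in either library, with the mean of log2(FPKM + 1) on the x axis and log2((drop FPKM + 1)/(WT FPKM + 1)) on the y axis; dashed lines mark 2-fold and the straight edges of the cloud are rows at 0 in 1 library. The 3 highest mitochondrial rows lie together between -1.74 and -1.58, and the 7 chloroplast rows past 2-fold all lie on the edges.

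How many chloroplast rows were called lower depended on the scale. At equal sums 2 rows were higher in drop and 9 lower, where 4.39% of all genes past the filter were higher and 48.6% lower. Under the median-ratio scaling 3 rows were higher and 7 lower, where 7.8% of all genes were higher and 43.4% lower. ATCG01120 and ATCG00820 were still called higher under each scaling, with log2 ratios of 4.18 and 2.68 at equal sums. Both were listed at 0 in WT, so a factor on drop could not turn their direction. The chloroplast sum was 3.41-fold lower in drop at equal sums and 2.60-fold lower under the median-ratio scaling.

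Most nuclear genes for the respiratory machinery reached 1 FPKM and had no common direction as deposited. A list of 25 nuclear genes of the respiratory chain and ATP synthase had 24 rows in the table, of which 23 passed 1 FPKM, 6 were higher and 2 lower in drop. Their median log2 ratio was 0.06, against -0.07 over all genes past the filter, and 12 were lower and 0 higher at equal sums. Among all genes past the filter, 26.4% were higher and 30.4% lower as deposited, and 4.39% higher and 48.6% lower at equal sums. The listed genes held 0.0116% of the sum in drop and 0.0402% in WT. Cytochrome c gene CYTC-2 (AT4G10040), which carries electrons between complexes III and IV, was at 51.2 FPKM in drop and 236 FPKM in WT, a log2 ratio of -2.19. The 20 kDa subunit of complex I (AT5G11770) was at 127.5 FPKM in drop and 121 FPKM in WT. The 24 kDa subunit of complex I (AT4G02580) was at 3.96 FPKM in drop and 0.295 FPKM in WT, a log2 ratio of 1.94. Succinate dehydrogenase genes SDH1-1, SDH2-1 and SDH2-2 of complex II, a complex with no member among the described organelle rows, were called higher as deposited, at 30.1, 21.7 and 18.4 FPKM in drop and at 12.6, 9.35 and 6.06 FPKM in WT. Their log2 ratios at equal sums were -0.22, -0.25 and 0.09.

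Among 7 alternative oxidase and uncoupling protein genes, AOX1A (AT3G22370), which passes electrons to oxygen without pumping protons, was at 130.0 FPKM in drop and 56.0 FPKM in WT. Its log2 ratio was 1.20 as deposited and -0.28 at equal sums. PUMP1 was at 2.58 FPKM in drop and 1.12 FPKM in WT, a log2 ratio of 0.76, and the 5 others did not reach 1 FPKM.

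Genes that transcribe organelle RNA were close to 0, and those of the editing list were low. Of 9 nuclear genes for organelle RNA polymerases and plastid sigma factors 0 reached 1 FPKM, and the highest values were 0.270 FPKM in drop and 0.295 FPKM in WT. The sigma factor gene SIGE was at 0.270 FPKM in drop and 0.150 FPKM in WT. MGP3 (AT1G68990), a mitochondrial RNA polymerase, was listed at 0 in drop and was at 0.242 FPKM in WT. Of 11 editing factors of the MORF family and polynucleotide phosphorylases, which trim and degrade organelle RNA, 5 passed 1 FPKM, 0 were higher and 3 lower in drop. Over all genes past the filter, 26.4% were higher and 30.4% lower. MORF9, a plastid editing factor, was listed at 0 in drop and at 1.35 FPKM in WT. The 5 that passed were between 0 and 2.94 FPKM in drop and between 1.13 and 3.17 FPKM in WT. MORF3 was at 0.328 FPKM in drop and 1.93 FPKM in WT, and MORF8, listed as RIP1 (AT3G15000), at 2.94 FPKM in drop and 3.17 FPKM in WT. AT1G32580 of the same list was at 1.33 FPKM in drop and 1.13 FPKM in WT. Of 7 genes of organelle DNA replication 3 passed, with POLGAMMA1 (AT3G20540), an organelle DNA polymerase, at 4.67 FPKM in drop and 0.338 FPKM in WT, and GYRB2 at 1.58 FPKM in drop and 0.595 FPKM in WT. The third, AT1G30680, was at 0.474 FPKM in drop and 1.19 FPKM in WT.

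**Figure D4:**
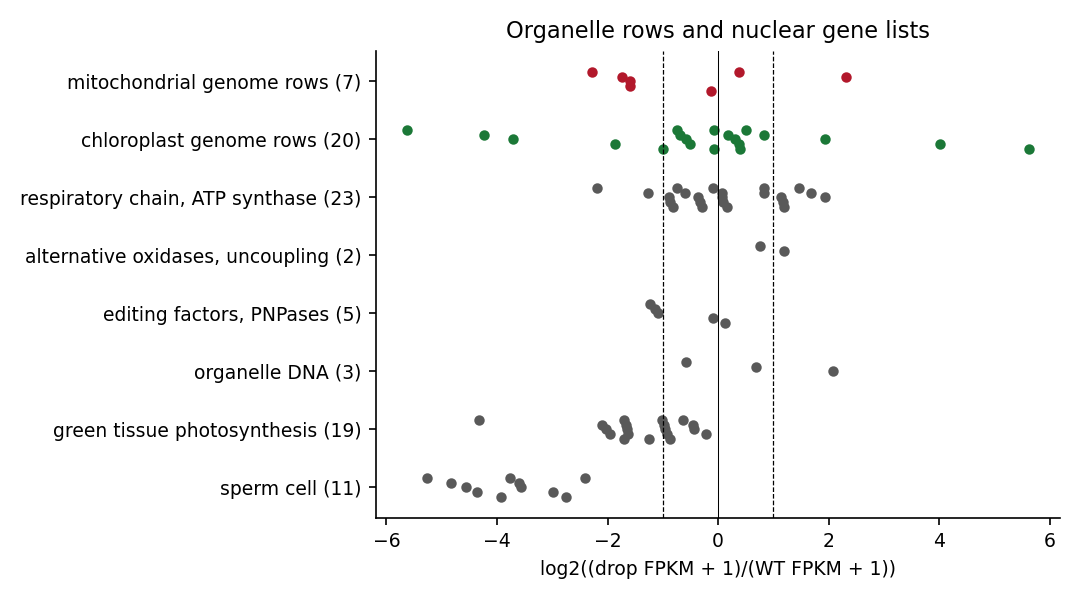
Each point is a row that reached 1 FPKM in either library, placed by log2((drop FPKM + 1)/(WT FPKM + 1)), for both organelle genomes and for the nuclear lists that had such rows, with their number in brackets; dashed lines mark 2-fold. The 11 sperm cell genes all lie below -1, as do 11 of the 19 green tissue photosynthesis genes, while the respiratory chain genes lie on both sides of 0. Over all genes past the filter, 30.4% were called lower.

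Among markers of cells that could hold organelle RNA, those of green tissue, sperm cells and the vegetative cell also differed as deposited. In the style and carpel list 0 genes were called higher and 0 lower as deposited. Over all genes past the filter, 26.4% were called higher and 30.4% lower as deposited, and 4.39% higher and 48.6% lower at equal sums. Of 25 nuclear photosynthesis genes that mark green tissue, 19 passed 1 FPKM, 0 were higher and 11 lower in drop, and their sum was 49.4 FPKM in drop and 228 FPKM in WT. That was 0.00135% of the library sum in drop and 0.0176% in WT. At equal sums 0 of these genes were higher and 19 lower. RBCS3B, the small subunit of Rubisco, was at 3.22 FPKM in drop and 83.7 FPKM in WT, and the photosystem II gene PSBR was at 12.1 FPKM in drop and 39.7 FPKM in WT. Of these genes 5 were listed at 0 in drop, namely RBCS1B, RBCS2B, CAB2, LHB1B1 and LHCA2, and LHB1B1 also in WT. Of 12 sperm cell genes 11 passed, and all 11 were lower in drop, with a list sum of 3451 FPKM in drop and 51556 FPKM in WT and with 0 members listed at 0. The list held 0.0941% of the library sum in drop and 3.97% in WT, and at equal sums 0 genes were higher and 11 lower. GEX2, which did not pass, went the other way, at 0.331 FPKM in drop and 9.35e-05 FPKM in WT. All 10 genes of the vegetative cell were higher in drop as deposited, and at equal sums 3 were higher and 0 lower. Their sum was 165323 FPKM in drop and 59155 FPKM in WT. Their share of the library sum was nearly the same, at 4.51% in drop and 4.55% in WT. Of 5 style and carpel genes 1 passed, with HAF, listed as CES, at 55.1 FPKM in drop and 43.8 FPKM in WT, while STY1 and CRC were listed at 0 in both libraries. At equal sums HAF was called lower, with a log2 ratio of -1.12. The part of these cells in the organelle values was not tested, and fewer cells of a type cannot be told apart from less RNA per cell in pooled tubes.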

How the data were processed

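Semi-in-vivo pollen tubes of drop and WT were profiled in 1 Smart-seq2 library each, per the labels' protocols. The authors deposited 1 column of FPKM for drop and 1 for WT, per the file headers. The submitters' processing notes list TopHat2 2.0.14 and Cufflinks 2.2.1, with TAIR10 as the build; the sources used here give no parameters, annotation release or further scaling. The sums of the columns differ by 2.82 times for a reason that is not stated.

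Members were all rows with ATMG or ATCG identifiers. No test was computed, since each genotype has 1 library, and depth is unknown. Genes were compared with a pseudocount of 1 FPKM, a filter of 1 FPKM in at least 1 library and a 2-fold rule. The rule was checked only on copies of the WT column with set changes and no noise, which does not cover rows near 0. The named-gene rule took rows of at least 10 FPKM, the 10 highest rows per library and the 5 largest log2 ratios in each direction, limited to 2 identifiers per direction and genome where no description exists, and from each nuclear list the 2 highest means and the 2 largest log2 ratios. Rows with RefSeq descriptions, their nuclear relatives, complex II genes, AT1G30680, AT2G07690, GEX2 and markers listed at 0 were also named, after their values were seen. The members and lists were chosen with earlier results of these data known.

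Descriptions came from notes in the RefSeq annotation of TAIR10.1, whose organelle genes carry other identifiers. Because it is not the authors' build, no coordinates or sequences are printed. Organelle genes were matched to nuclear chromosomes of TAIR10.1 with blastn 2.17.0, joining the parts of trans-spliced genes. Alternatives were other pseudocounts, filters and folds, 3 scalings and other denominators. Close paralogs and overlapping genes are uncertain, because fragments can be shared.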

Additional observations from a re-analysis of the deposited data

How the results depend on the processing

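No paired analysis was possible because there is a single drop library and a single WT library. A value was taken as moved when it differed by over 1.5 times. Rows above 0 numbered 8 mitochondrial and 23 chloroplast in drop, and 14 and 27 in WT. With FPKM of at least 1, there were 6 mitochondrial rows in WT, and 13 chloroplast rows in drop and 13 in WT; with at least 10, 3 mitochondrial rows were left in drop and 3 in WT, and 2 chloroplast rows in drop and 4 in WT. A higher limit leaves fewer rows by construction. Without the 50 highest genes in the sum, the mitochondrial share was 0.0146% in drop and 0.0957% in WT and the chloroplast share 0.00885% in drop and 0.0231% in WT. Without the highest row of each genome, the mitochondrial share was 0.00286% in drop and 0.0244% in WT and the chloroplast share 0.00147% in drop and 0.00576% in WT. Each share was the larger one in WT under both alternatives.

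The 1 mitochondrial row called higher became 0 with a pseudocount of 10 and again 0 with a filter of 10 FPKM. The 4 called lower became 1 at 4-fold, which asks for a larger difference. The 4 chloroplast rows called lower became 9 at equal sums, 8 when the pseudocount was 0.1, 7 with the median ratio set to 1 and 7 when sums were made equal after leaving out the 50 highest genes; scaling drop down lowers every drop value by construction. Of 48 values under alternatives 26 stayed within 1.5 times. The sampling error of rows near 0 was not estimated, because depth and the lengths of these rows are not given.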
